A study of Mus musculus with 6 samples.

Results

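Phagocytic and axon-tract microglia genes are genes that microglia, the resident macrophages of the nervous system, express strongly while they engulf dying cells, synapses and myelin during development, and again around lesions. The 10 genes described here, Spp1, Gpnmb, Lpl, Itgax, Cd68, Clec7a, Lgals3, Fabp5, Cd9 and Axl, were chosen by gene symbol from the 55487 genes of the deposited table. All 10 were listed and all 10 had at least 10 reads in at least 3 libraries, the minimum for testing, which 20459 genes met.

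RNA had been sequenced from GFP and tdTomato double-positive cells sorted as vascular endothelial cells (VECs) from mouse retinas at postnatal day 7.5 (P7.5). The study asked what the clock gene Bmal1 controls in these cells. The 3 control animals were tdTomato FL/+;Pdgf-icreER and the 3 Bmal1;CKO animals were Bmal1 FL/FL;tdTomato FL/+;Pdgf-icreER, with 1 library each. All animals carried the Cre transgene, which also encodes GFP and is driven by Pdgf regulatory sequence, together with 1 copy of the tdTomato reporter, and tamoxifen was given to all of them between P0.5 and P2.5. Deletion of Bmal1 was therefore meant for cells in which this driver was active, and microglia are not its intended target. Which of the sorted cells lost Bmal1 cannot be read from these libraries. Control libraries are numbered 1 to 3 and Bmal1;CKO libraries 4 to 6, as in the table.

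In a phagocytosing microglial cell, surface receptors such as AXL and dectin-1, encoded by Clec7a, recognise apoptotic cells or glycans, and integrins bind opsonised or matrix-coated material. The cargo is broken down in lysosomes, where CD68 and GPNMB are abundant membrane glycoproteins, and the lipids released are handled by lipoprotein lipase, encoded by Lpl, and the fatty acid binding protein FABP5. Secreted osteopontin, the product of Spp1, and galectin-3, the product of Lgals3, accompany the state, which is seen in young microglia along developing axon tracts and in amoeboid microglia of the early postnatal retina.

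Each library held 71145068 to 104017800 reads on genes. The labelled cell type was present by its markers, as all 14 endothelial markers had at least 10 reads in every library, but so were macrophages and rods. Per kb of exon, the level of the macrophage gene C1qb averaged 1053684 normalized counts (reads divided by the size factor of the library), against 81069 for Cldn5, the leading endothelial marker. All 12 homeostatic microglial markers and all 10 general macrophage markers also had at least 10 reads in every library. In these bulk libraries, fewer microglia and less RNA per microglial cell cannot be told apart. Bmal1 itself (Arntl in the table) had normalized counts of 2706 ± 915 (SD, n = 3) in control and 2314 ± 492 in Bmal1;CKO, which gave a log2 fold change of -0.19 (limma-trend, adjusted p = 0.924). The value covers the whole gene and every cell in the library, and does not measure the loss of single exons. By droplet digital PCR on sorted endothelial cells, the paper reported significantly less Bmal1 transcript in the mutant than in control. Xist, expressed from the inactive X chromosome, had at most 6.15 normalized counts in control and 439 to 2492 in Bmal1;CKO, while the Y chromosome gene Ddx3y had 1060.3 to 1396 in control and 0 to 381 in Bmal1;CKO. Sex and genotype cannot be told apart in these libraries. Libraries 4 and 6 held RNA of both genes, so it is not known whether each of them came from 1 animal.

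Promoter sequences are shown for the 2 most abundant members, Spp1 and Cd68, for Itgax, which carried most motif matches, and for Clec7a, the member that differed most clearly between genotypes. RefSeq start sites for GRCm38.p6 were found for 8 of the 10 members, all but Lpl and Fabp5, and 250 bases before each start were read. Spp1 and Clec7a each had another start site, whose window is not shown and held no motif match. Letters are in capitals where a motif was found on either strand, and each sequence runs 5′ to 3′ on the strand of its gene.
Spp1, chr5:104434861-104435110, plus strand: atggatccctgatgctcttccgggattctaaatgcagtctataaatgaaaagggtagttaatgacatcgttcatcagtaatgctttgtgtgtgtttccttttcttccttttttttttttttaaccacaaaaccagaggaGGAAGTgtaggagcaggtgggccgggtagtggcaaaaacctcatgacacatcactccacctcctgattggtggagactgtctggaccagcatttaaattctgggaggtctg
Cd68, chr11:69666171-69666420, minus strand: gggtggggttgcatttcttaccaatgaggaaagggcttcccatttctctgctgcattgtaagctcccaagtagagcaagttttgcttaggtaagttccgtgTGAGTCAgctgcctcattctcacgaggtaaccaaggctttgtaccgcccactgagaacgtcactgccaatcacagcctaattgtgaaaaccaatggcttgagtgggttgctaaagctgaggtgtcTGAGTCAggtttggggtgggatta
Itgax, chr7:128129300-128129549, plus strand: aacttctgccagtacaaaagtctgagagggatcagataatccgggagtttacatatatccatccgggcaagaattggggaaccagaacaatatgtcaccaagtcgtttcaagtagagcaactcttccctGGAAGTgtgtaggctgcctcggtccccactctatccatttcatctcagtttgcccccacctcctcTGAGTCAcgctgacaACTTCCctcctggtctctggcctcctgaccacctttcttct
Clec7a, chr6:129472780-129473029, minus strand: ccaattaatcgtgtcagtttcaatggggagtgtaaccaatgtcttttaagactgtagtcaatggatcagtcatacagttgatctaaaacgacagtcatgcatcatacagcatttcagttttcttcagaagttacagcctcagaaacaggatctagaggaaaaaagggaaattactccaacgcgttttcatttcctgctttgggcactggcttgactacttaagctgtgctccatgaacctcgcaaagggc

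The motif CACGTG, the E-box that BMAL1 with CLOCK and also MITF, TFE3 and TFEB recognise, was found in 0 of the 8 members and in 6.02% of 32851 promoter windows of the same length. The AP-1 motif TGANTCA was found in 2 of 8, Cd68 and Itgax, against 6.75% of all windows. Its first base lay at -149 and -24 from the Cd68 start and at -56 from the Itgax start. The ETS core GGAAGT, which PU.1 can bind, was found in Spp1 at -111 and in Itgax at -121 and -41, again 2 of 8, against 19.7% of all windows. The 3 motifs did not overlap one another, and the Clec7a windows held none of them. Members are counted by gene, while the shares are over windows. These matches describe letters in the windows and were not tested as binding sites.

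The level of the members, set against exon length, spanned a wide range. Spp1 averaged 78466 normalized counts per kb over the 6 libraries and Cd68 57518, followed at a distance by Cd9 with 8920.3, Lgals3 with 5058, Lpl with 1647, Clec7a with 1344 and Axl with 1060.3. Fabp5 with 308, Gpnmb with 247 and Itgax with 108 were the least abundant. These levels ran from percentile 38.9 of the tested genes for Itgax to 99.6 for Spp1. Neighbours in this order often could not be separated. Spp1 was above Cd68 in only 2 of 6 libraries, so that its higher mean came from few libraries. Lpl was above Clec7a in 3 of 6, Clec7a above Axl in 4 of 6, Fabp5 above Gpnmb in 5 of 6 and Gpnmb above Itgax in 4 of 6. Cd68 stood above Cd9, Cd9 above Lgals3, Lgals3 above Lpl and Axl above Fabp5 in 6 of 6 libraries.

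**Figure D1:**
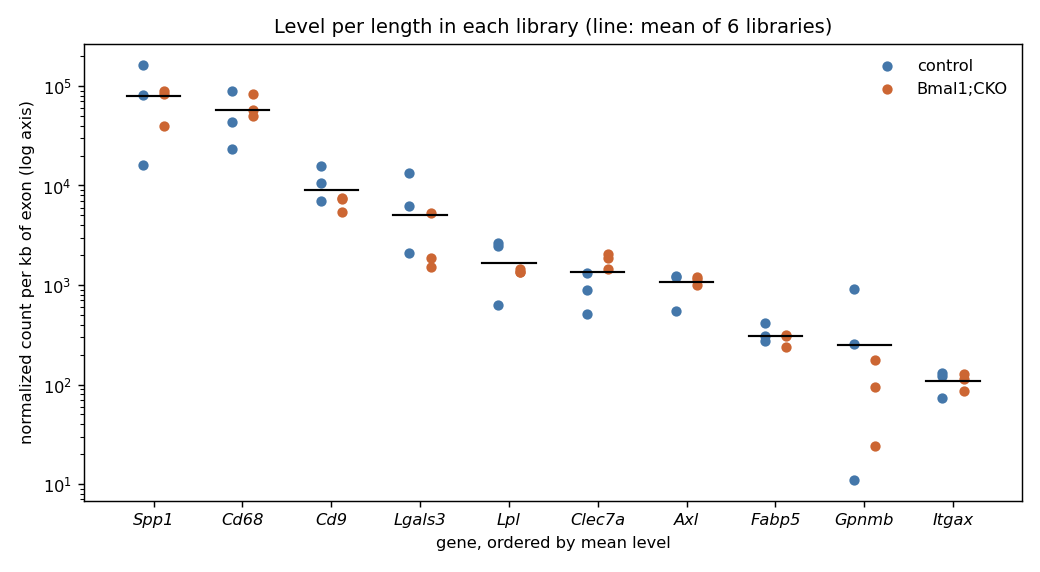
Level of each member in normalized counts per kb of exon on a log axis, with 1 point per library (3 control, 3 Bmal1;CKO) and a line at the mean of the 6 libraries. The means of Spp1 and Cd68 lie far above those of the other 8 members, although the lowest point of Spp1, 16202, is close to the highest of Cd9, 15842, and the points of Gpnmb spread most, from 11 to 920.4.

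Between Bmal1;CKO and control, the 10 members did not move as a block. In the limma-trend fit on log2(normalized count + 1), 5 had a positive and 5 a negative log2 fold change, where 56.6% of all 20459 tested genes were positive, and their median was -0.08 against 0.11 over all tested genes. Clec7a was higher in every Bmal1;CKO library than in any control library, and Lgals3, Gpnmb and Cd9 had the most negative fold changes, with groups that overlapped. At FDR 0.05, 0 members were called by limma-trend, where 0 of all tested genes (0.0%) were called. At an unadjusted p under 0.05 there was 1 member, Clec7a, against 1007 of all tested genes (4.92%; 3.17% higher and 1.75% lower in Bmal1;CKO). The members called at FDR 0.05 were also 0 with edgeR, DESeq2 and limma-voom, and Clec7a was the 1 member at an unadjusted p under 0.05 in each. That threshold was met by 3.8% of the tested genes with edgeR and TMM scaling, 3.87% with edgeR and the deposited size factors, 5.92% with DESeq2 and 4.87% with limma-voom. At FDR 0.05, DESeq2 called 67 of the tested genes (0.327%), none of them a member. The median over all tested genes was -0.03 with edgeR, so a fold change near 0 has a sign that depends on the test. An exact two-sided permutation test over the 10 splits of 3 libraries against 3 cannot give a p below 0.1, so for single genes that test cannot pass the threshold. Unless another test is named, fold changes are those of limma-trend on log2(normalized count + 1), and SE is their standard error.

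**Figure D2:**
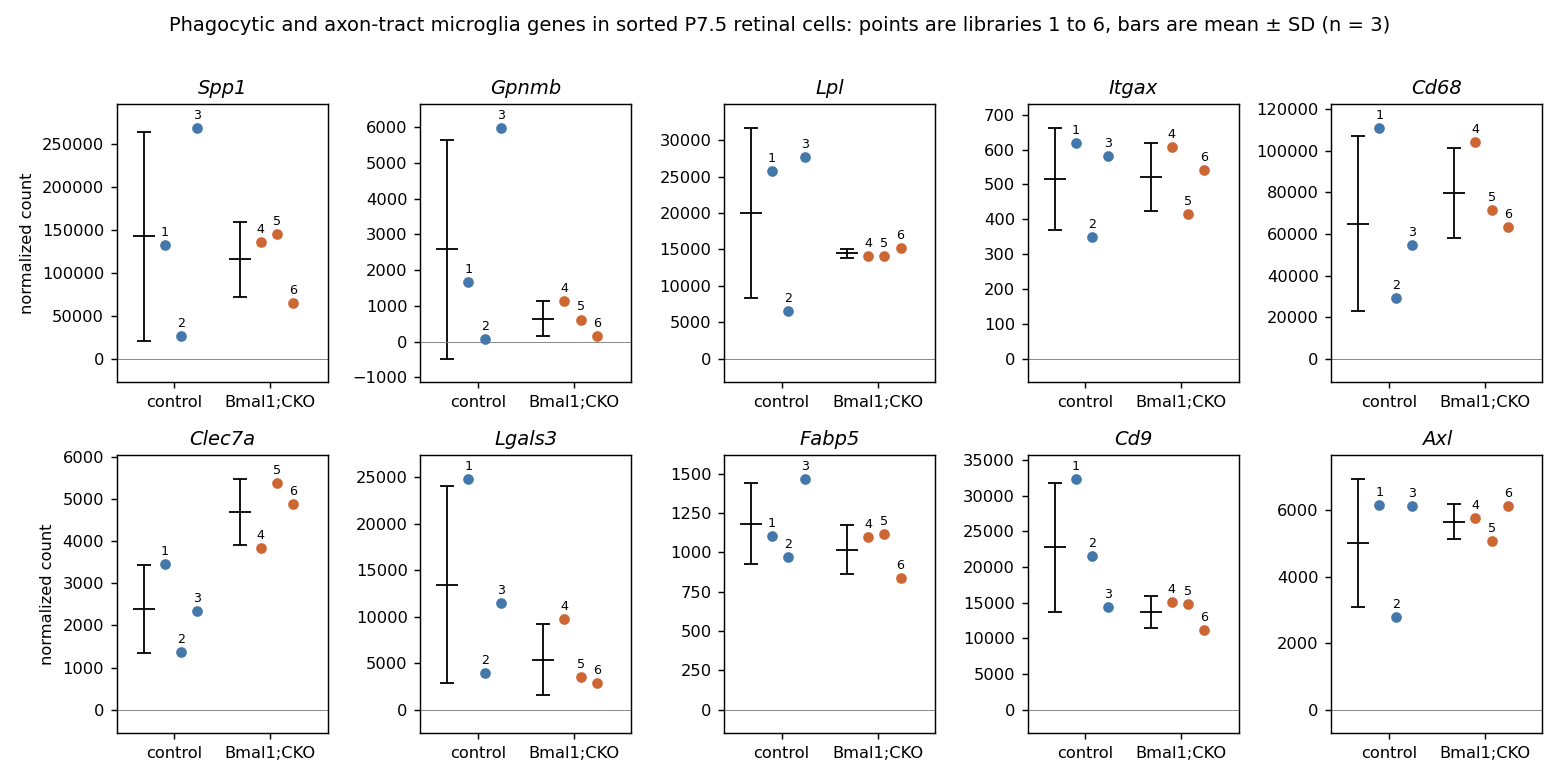
Normalized counts of each member, with a linear axis for each gene, 1 point per library numbered 1 to 6 (blue control, orange Bmal1;CKO), and the mean ± SD of each group beside the points (n = 3). Clec7a is the only gene whose 3 Bmal1;CKO points, from 3837 to 5368, all lie above the 3 control points, from 1363 to 3466.

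Among the receptors, Clec7a encodes dectin-1, a C-type lectin that binds beta-glucans and signals through SYK. Clec7a (ENSMUSG00000079293, chr6:129461591-129472779, minus strand, GRCm38) is listed in the table's annotation as a polymorphic pseudogene. It had 3466, 1363 and 2344 normalized counts in control libraries 1 to 3 and 3837, 5368 and 4888 in Bmal1;CKO libraries 4 to 6. All 3 Bmal1;CKO libraries were above all 3 control libraries, which 6.62% of the tested genes also showed in this direction (4.54% in the opposite direction and 11.2% in either). The means were 2391 ± 1052 and 4697 ± 783 (SD, n = 3), a log2 fold change of 1.06 (SE 0.38; limma-trend, adjusted p = 0.883, from 0.0238 before adjustment). The difference did not pass the FDR threshold. The unadjusted p was 0.066, 0.079 and 0.065 without library 2, 5 or 6, and the fold change ran from 0.71 to 1.38 with any library left out.

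Axl encodes a receptor tyrosine kinase that binds GAS6 on the surface of apoptotic cells. It had 6149.5, 2781 and 6115 normalized counts in control and 5772, 5081 and 6119.9 in Bmal1;CKO. Control library 2 was low and the other 5 libraries lay close together, so the groups overlapped. The log2 fold change was 0.26 (SE 0.35; limma-trend, adjusted p = 0.900), and it was -0.12 without control library 2.

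Itgax encodes the integrin alpha X chain, CD11c, which pairs with the beta 2 chain in complement receptor 4 and marks microglia of developing white matter. It had 620.1, 349 and 581 normalized counts in control and 606, 415 and 542 in Bmal1;CKO. No library stood far apart and the groups overlapped. The means were 517 ± 147 and 521 ± 97.1 (SD, n = 3), with a log2 fold change of 0.04 (SE 0.46; limma-trend, adjusted p = 0.990) whose sign turned under 3 of the alternatives.

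Cd9 encodes a tetraspanin that associates with integrins and is expressed by many cell types, endothelial cells among them. It had 32380.3, 21466 and 14388 normalized counts in control and 15157, 14856 and 11152 in Bmal1;CKO. Control libraries 1 and 2 were above every Bmal1;CKO library, but control library 3 was below libraries 4 and 5. The log2 fold change was -0.66 (SE 0.34; limma-trend, adjusted p = 0.883, from 0.0851 before adjustment), and it was -0.37 without control library 1. Of the 2044 exonic bases of Cd9, 218 are shared with the antisense gene Gm26728, which averaged 21.4 normalized counts. Whether the counting used strand is not given in the sources used here.

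Of the secreted members, Spp1 encodes osteopontin, a phosphoprotein that binds integrins and CD44. Spp1 (ENSMUSG00000029304, chr5:104435118-104441050, plus strand) had 132687, 26700.5 and 269314 normalized counts in control and 136463, 145442 and 65269.9 in Bmal1;CKO. Control held both the lowest and the highest library, 10.1 times apart, and the Bmal1;CKO libraries lay between them, 2.23 times apart. The mean of control, 142900.3 ± 121629, was above that of Bmal1;CKO, 115725 ± 43926 (SD, n = 3), while the log2 fold change was 0.15 (SE 0.81; limma-trend, adjusted p = 0.978), since the mean of logs gives less weight to library 3. The edgeR and DESeq2 fits on the reads gave -0.32 and -0.30, so no direction can be given for Spp1. Of its 1648 exonic bases, 309 are shared with Gm42793 on the same strand, which averaged 6.96 normalized counts.

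Lgals3 encodes galectin-3, a carbohydrate-binding protein that is secreted and gathers at damaged lysosomes. It had 24854, 3921 and 11511 normalized counts in control and 9773, 3482 and 2845 in Bmal1;CKO. Control library 1 was the highest and Bmal1;CKO libraries 5 and 6 the lowest, but control library 2 lay among the Bmal1;CKO values. The means were 13428 ± 10598 and 5367 ± 3829.8 (SD, n = 3). This gave the most negative log2 fold change of the members, -1.18 (SE 0.72; limma-trend, adjusted p = 0.883, from 0.141 before adjustment). It stayed negative with each library left out, from -1.88 to -0.55.

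Of the lysosomal members, Cd68 encodes a heavily glycosylated membrane protein of late endosomes and lysosomes, and is a common marker of phagocytic macrophages. Cd68 had 111064, 29172 and 54519 normalized counts in control and 104210.1, 71413 and 63425 in Bmal1;CKO. All 3 Bmal1;CKO libraries were above control libraries 2 and 3, and control library 1 was the highest of all. The log2 fold change was 0.47 (SE 0.50; limma-trend, adjusted p = 0.886). Without control library 1 it was 0.97, and without control library 2 it was 0.00.

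Gpnmb encodes a transmembrane glycoprotein of lysosomes and melanosomes that is induced by MITF and TFE factors under lysosomal load. It had 1679, 71.5 and 5995 normalized counts in control and 1139, 618 and 157 in Bmal1;CKO. The control libraries differed 83.9-fold, with library 3 the highest and library 2 the lowest of all 6. The log2 fold change was -0.90 (SE 1.54; limma-trend, adjusted p = 0.911), and it was -2.72 when control library 2 was left out and 0.46 when control library 3 was. The lowest value rests on 77 reads, so the spread is larger than counting error.

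For lipid handling, Lpl encodes lipoprotein lipase, which releases fatty acids from triglyceride-rich particles. It had 25836, 6564 and 27699.8 normalized counts in control and 14152, 14136 and 15140.3 in Bmal1;CKO. The Bmal1;CKO libraries were within 1.07 times of one another and lay between control library 2 and the other 2 control libraries. The log2 fold change was -0.21 (SE 0.53; limma-trend, adjusted p = 0.941), and its sign depended on single control libraries. It was -0.89 without control library 2, 0.10 without control library 1 and 0.15 without control library 3.

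Fabp5 encodes an intracellular carrier of fatty acids. It had 1105, 971 and 1469.7 normalized counts in control and 1098, 1114 and 840.3 in Bmal1;CKO. The values lay close together and the groups overlapped. The log2 fold change was -0.21 (SE 0.34; limma-trend, adjusted p = 0.909). The processed pseudogene Fabp5l2, a near copy, averaged 6.29 normalized counts, and reads could be split between Fabp5 and such copies.

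**Figure D3:**
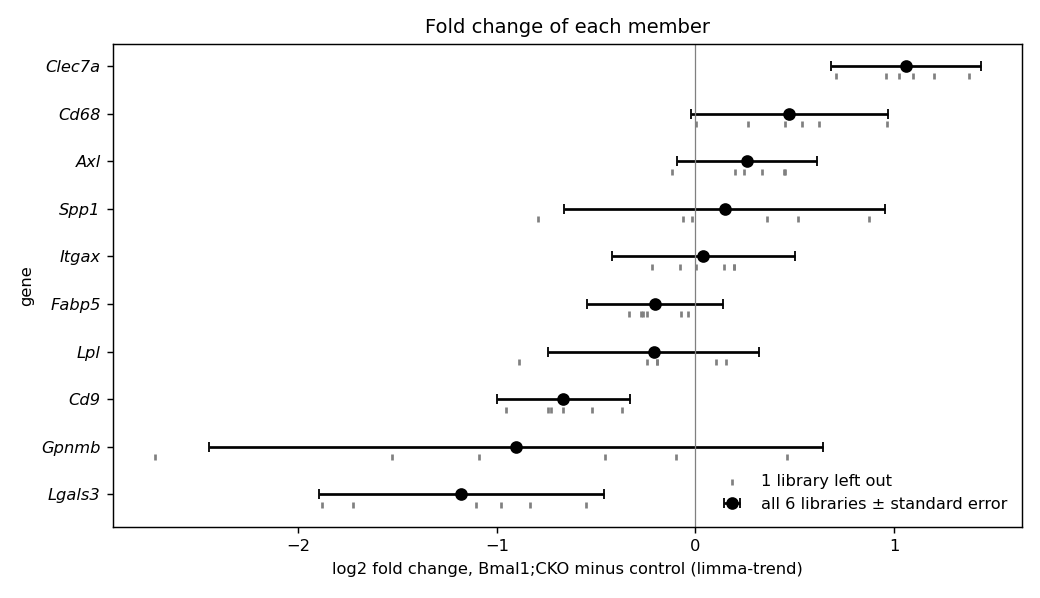
Log2 fold change of each member, Bmal1;CKO minus control, from limma-trend, as a black point with its standard error, and the values with 1 library left out as grey ticks. Clec7a at 1.06 is the one point more than 2 standard errors from 0, and the ticks of Spp1, Gpnmb, Lpl, Itgax and Axl fall on both sides of 0.

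The members shared a wider spread in control than in Bmal1;CKO. On the log2 scale the SD was larger in control for 10 of 10 members, where 75.0% of all tested genes had this order. The difference was widest for Lpl, with an SD of 1.17 in control and 0.06 in Bmal1;CKO, and for Gpnmb, with 3.28 and 1.46. Control library 2 was the lowest library for 7 of the 10 members, against 18.3% of all tested genes. Bmal1;CKO library 6 was lowest for the other 3, Lgals3, Fabp5 and Cd9, against 8.56% of all tested genes. Control library 1 was highest for 5 members (26.9% of all tested genes), control library 3 for 4 (16.8%) and Bmal1;CKO library 5 for Clec7a (11.4%). Together the members took 0.317%, 0.125% and 0.530% of the reads in control libraries 1 to 3 and 0.292%, 0.305% and 0.221% in Bmal1;CKO libraries 4 to 6. Spp1 alone made up 28.6% to 68.4% of those reads.

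General microglial RNA also varied between the libraries. The mean log2 level of the 22 homeostatic and general macrophage markers was 16.47, 15.18 and 15.71 in control libraries 1 to 3 and 16.22, 15.96 and 15.80 in Bmal1;CKO libraries 4 to 6. Control library 2, lowest for most members, was also lowest for these markers, and the groups overlapped. The group means were 15.79 ± 0.65 and 15.99 ± 0.21 (SD, n = 3), a difference of 0.21. The summed normalized counts of the 12 homeostatic markers ran from 417388 to 943534 in control and from 768856 to 976077 in Bmal1;CKO. Those of the 10 general macrophage markers ran from 1478448 to 4464744 and from 2010828 to 4260444, and none of the 22 markers was at 0 in any library. Their part in the members' values was not tested.

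To set the members against the microglial RNA of the same library, the mean log2 level of these 22 markers was subtracted from that of each member. The cells that gave the members' RNA cannot be told apart in these bulk libraries. The relative values are therefore not levels per microglial cell. Relative to them, Clec7a was -4.71, -4.77 and -4.52 in control and -4.31, -3.57 and -3.55 in Bmal1;CKO. The groups did not overlap, and the difference in means was 0.86, where 3.05% of the tested genes did not overlap in this direction. Clec7a overlapped when the general macrophage markers alone were the reference. Cd9 was -1.49, -0.79 and -1.90 in control and -2.33, -2.10 and -2.36 in Bmal1;CKO. These groups did not overlap either, with a difference of -0.87, against 4.96% of the tested genes in this direction and 8.01% in either, but they overlapped with the homeostatic markers alone. The exact permutation p was 0.1 for both, the smallest the design allows.

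The other 8 members overlapped between groups on this relative scale. Lgals3 differed by -1.38, with -1.87, -3.24 and -2.22 in control and -2.96, -4.19 and -4.33 in Bmal1;CKO, so that only control library 2 lay within the Bmal1;CKO range. Gpnmb differed by -1.11, Lpl by -0.42, Fabp5 by -0.41, Itgax by -0.17, Spp1 by -0.06, Axl by 0.05 and Cd68 by 0.27. In all, 7 of 10 members were lower relative to the markers in Bmal1;CKO, with a median difference of -0.29, against -0.10 over all tested genes. That median was 0.13 without control library 3, so its sign rests on that library. With the marker level as a covariate in limma-trend, 0 members passed FDR 0.05, where 1 of all tested genes (0.00489%) did, and the unadjusted p was 0.001 for Lgals3, 0.022 for Clec7a and 0.034 for Cd9. In that fit 13.8% of all tested genes had an unadjusted p under 0.05, so these members stood against a high background.

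**Figure D4:**
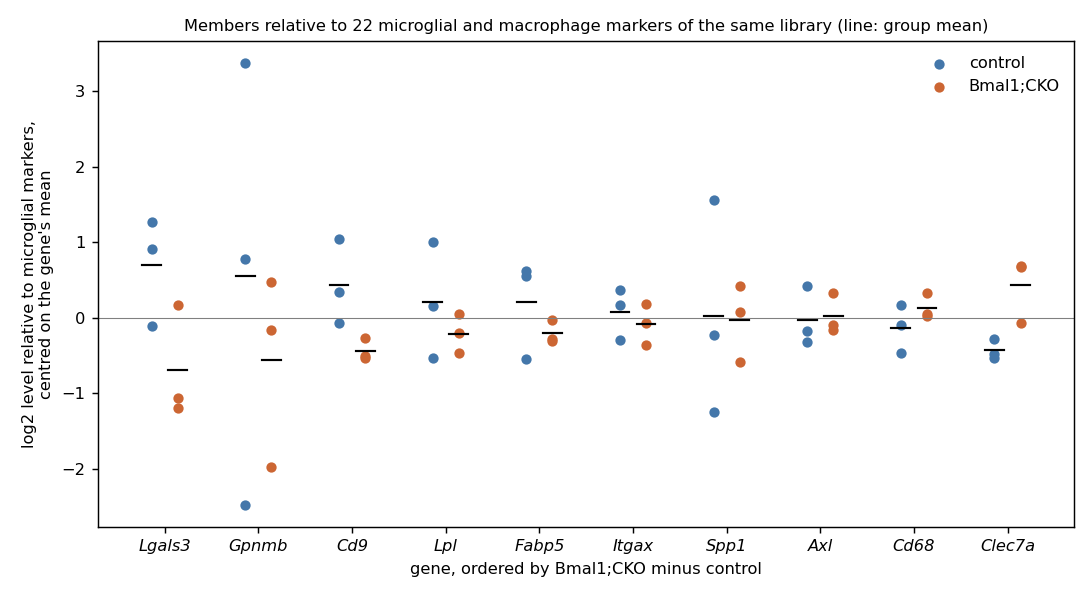
Log2 level of each member relative to the mean of 22 microglial and macrophage markers of the same library, centred on the mean of the gene, with 1 point per library and a line at each group mean. The Bmal1;CKO points of Cd9 all lie below and those of Clec7a all lie above the control points, and Gpnmb and Spp1 spread most among the control libraries.

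Other genes linked to the same state, not all of them particular to microglia, were described from a list of 28, among them Apoe, Trem2, Tyrobp, Cst7 and the cathepsins. Of the 27 tested, 19 had a positive and 8 a negative log2 fold change, with a median of 0.34, but the median was -0.00 with edgeR and 0.00 with DESeq2, so the list has no stable direction. With 1 library left out the median in limma-trend lay between 0.11 and 0.64, the lowest when control library 2 was absent. At FDR 0.05, 0 genes were called by limma-trend, and at an unadjusted p under 0.05 there were 2 higher and 1 lower. Of all tested genes, 3.17% were higher and 1.75% lower at that threshold, and 56.6% had a positive fold change. Trem2, a lipid-sensing receptor of microglia, had 209842, 71124 and 70617 normalized counts in control and 222082, 135178 and 98494 in Bmal1;CKO. Its groups overlapped, with a log2 fold change of 0.50 (SE 0.53). Apoe, which carries the lipid taken up, had a log2 fold change of 0.69 (SE 1.46), and Cst7, an inhibitor of cathepsins, one of 0.08 (SE 0.43).

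The 3 genes of that list at an unadjusted p under 0.05 were Hif1a, Pld3 and Colec12, each with an adjusted p of 0.883 in limma-trend. The cells that gave their RNA cannot be told apart in these bulk libraries. Hif1a, the oxygen-regulated transcription factor, had 5756, 5951 and 6448 normalized counts in control and 1233, 3367 and 3789 in Bmal1;CKO. Every Bmal1;CKO library was below every control library, as for 4.54% of all tested genes. The log2 fold change was -1.27 (SE 0.43), and -0.76 without Bmal1;CKO library 4. Pld3, a lysosomal nuclease, had 45777, 18586 and 42261 in control and 82016, 61325 and 58411 in Bmal1;CKO. The groups of Pld3 did not overlap, as for 6.62% of all tested genes in this direction. Its log2 fold change was 1.01 (SE 0.39), and 0.60 without control library 2. Colec12, a scavenger receptor of vascular cells, had 19.7, 235 and 879.6 in control and 1366, 2472 and 1510.0 in Bmal1;CKO. Its log2 fold change was 3.41 (SE 1.23), and 1.92 without control library 1.

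Ligands, receptors and binding partners of the members formed a list of 35, of which 34 were tested. Of these, 19 had a positive and 15 a negative log2 fold change, with a median of 0.12 in limma-trend and -0.20 with edgeR, so that its sign depends on the test. Without control library 2 the median was -0.26. At FDR 0.05, 0 were called by limma-trend, and 1, Itgb1, had an unadjusted p under 0.05, against 4.92% of all tested genes. Itgb1, the beta 1 integrin chain that binds osteopontin and associates with CD9, had 13269, 13767 and 22671 normalized counts in control and 7127, 7971 and 11591 in Bmal1;CKO. All 3 Bmal1;CKO libraries were below all 3 control libraries, as for 4.54% of all tested genes. The log2 fold change was -0.88 (SE 0.31; limma-trend, adjusted p = 0.883). In 2 other genes of the list the Bmal1;CKO libraries were all above the control libraries, as for 6.62% of all tested genes. These were Itga9, another integrin chain of an osteopontin receptor, with 0.47 (SE 0.42), and Igsf8, which associates with CD9, with 0.48 (SE 0.22).

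The signalling partners of Clec7a overlapped between groups. Syk, the kinase downstream of dectin-1, had a log2 fold change of 0.46 (SE 0.45), and Card9, the adaptor that follows it, one of 0.95 (SE 0.74). Bcl10 and Malt1, of the same list, went the other way, with -0.17 (SE 0.25) and -0.46 (SE 0.66). For Axl, the ligand Gas6 had 0.03 (SE 0.33) and the related receptor Mertk 0.40 (SE 0.41) on the same log2 scale. For Itgax, the beta 2 chain Itgb2 had 0.36 (SE 0.37) and the alternative alpha chain Itgam -0.24 (SE 0.41). For Lpl, Gpihbp1, which anchors the enzyme on capillary endothelium, had -0.53 (SE 0.43). For Spp1, the receptor Cd44 had 0.80 (SE 1.48), and Cd44 ranged from 8.35 to 549 normalized counts over the libraries.

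Of 12 listed transcription and signalling regulators, all tested, 11 had a positive and 1, Bhlhe41, a negative log2 fold change in limma-trend. Their median was 0.77, against 56.6% positive and a median of 0.11 over all tested genes. With edgeR 10 were positive and their median was 0.52, against -0.03 over all tested genes. In limma-trend the median of the regulators was positive with each library left out, from 0.51 to 0.89. At FDR 0.05, 0 were called by limma-trend, and 1 had an unadjusted p under 0.05, against 4.92% of all tested genes. That gene was Inpp5d, the phosphatase SHIP1 that restrains signalling below TREM2 and dectin-1, with 5052, 3144 and 5769 normalized counts in control and 9079, 6855 and 7342 in Bmal1;CKO. Its groups did not overlap, as for 6.62% of all tested genes in this direction. The log2 fold change was 0.77 (SE 0.30; limma-trend, adjusted p = 0.883), and 0.51 without control library 2.

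Tfeb, a master regulator of lysosomal genes, had 5152, 1936 and 3949 normalized counts in control and 9015, 5712 and 5216 in Bmal1;CKO. Its groups did not overlap either, although library 6 was barely above control library 1, and the log2 fold change was 0.92 (SE 0.41). Its relatives Mitf and Tfe3, which act on Gpnmb, had 0.76 (SE 0.48) and 0.71 (SE 0.49) with groups that overlapped. The myeloid factors Spi1, which encodes PU.1, and Irf8 had 0.55 (SE 0.51) and 0.60 (SE 0.36). Such positive values stood beside positive medians in the homeostatic microglial list, 0.31 with 10 of 12 genes positive, and in the general macrophage list, 0.24 with 6 of 10 positive. Each of these medians rested on single libraries. The homeostatic median was -0.00 with 6 of 12 positive without control library 2, and the general macrophage median was -0.06 without control library 3, 0.03 without control library 2 and 0.04 without Bmal1;CKO library 4. With the microglial marker level as a covariate, the median of the regulators was 0.62 with 11 positive, against 0.11 over all tested genes. The part of microglial RNA in the regulators' values was not tested.

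**Figure D5:**
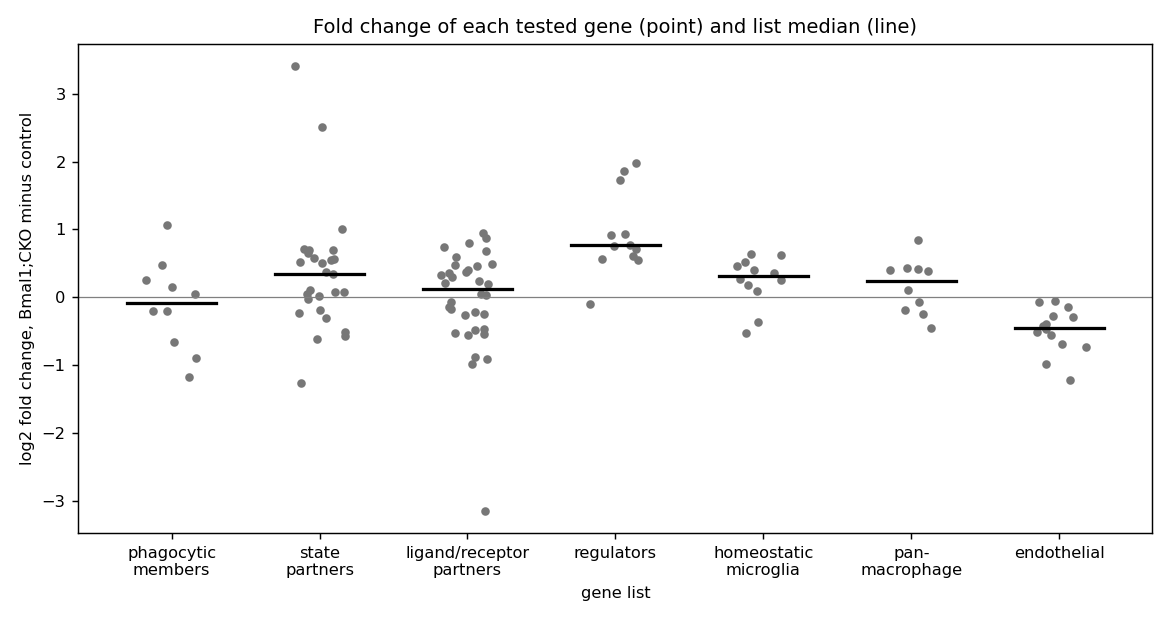
Log2 fold change of each tested gene, Bmal1;CKO minus control, by gene list, with a line at the list's median. The members centre near 0 with a median of -0.08, the regulators at 0.77 and the endothelial markers at -0.45.

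Markers of other cells that the sort could hold were counted in the same way, and 0 of them were called at FDR 0.05 by limma-trend. All 14 endothelial markers had a negative log2 fold change, where 56.6% of all tested genes were positive. They had a median of -0.45 and summed normalized counts of 195911 to 395885 in control and 122268 to 255173 in Bmal1;CKO. That median was -0.12 without control library 1 and -0.11 without Bmal1;CKO library 5, each with 4 of 14 positive. Rod markers were negative for 11 of 12, with a median of -0.26 and sums of 754196 to 930158 and 560427 to 900147, but without Bmal1;CKO library 4 the median was 0.04 with 6 of 12 positive. Of the rod markers, Cnga1 (-1.37), Rcvrn (-0.997) and Gngt1 (-1.82) had an unadjusted p under 0.05, as did the Müller glia gene Sox9 (1.33). That threshold was met by 4.92% of all tested genes. Without control library 1, Rcvrn was -0.65 and Sox9 0.86, and without control library 3 Gngt1 was -2.76. Of 8 border macrophage markers, 5 were tested, and Cd163, Lyve1 and F13a1 were at 0 in at least 1 library. Of 8 neutrophil and monocyte markers, 1 was tested, 7 were at 0 in at least 1 library, and their sum was 1.23 to 107 normalized counts per library (Ly6c2 had at most 83). The median was 0.49 for 6 Müller glia markers, -0.20 for 9 ganglion cell markers, 0.58 for 7 astrocyte markers and -0.08 for 8 pericyte markers, of which the last 2 were -0.39 and -1.47 with edgeR. With 1 library left out, these medians ran from 0.19 to 0.56 for Müller glia, from -0.71 to 0.22 for ganglion cells, from -0.65 to 1.03 for astrocytes and from -1.48 to 1.97 for pericytes, so the last 3 have no stable sign. The summed pericyte markers were 5150, 11348 and 52495 normalized counts in control libraries 1 to 3 and 6936 to 9270 in Bmal1;CKO, so control library 3 stood apart. The part of these cells in the members' values was not tested.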

How the data were processed

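RNA from GFP and tdTomato double-positive retinal cells of 3 control and 3 Bmal1;CKO animals was amplified (Smart v4 kit) and made into Nextera XT libraries. According to the paper's methods and the submitters' processing notes, the authors used FastQC for read quality, Trimmomatic for trimming, Bowtie for alignment to mm10 (GRCm38) and featureCounts for gene counts. Versions and the use of strand are not given in the sources used here. The authors deposited a signal per gene and library, the count divided by a DESeq2 size factor, called a normalized count. The table's columns of the authors' own comparison (fold changes and p-values) were not used. Columns name the genotype, and their numbers go against the library numbers in the labels, so each stands for its genotype and was tied to no single animal.

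Dividing each column by its smallest step gave whole reads for 100% of values (within 0.02), size factors of 0.813 to 1.40 in control and 0.711 to 1.21 in Bmal1;CKO, and 71145068 to 104017800 reads on genes. The 20459 of 55487 genes that reached 10 reads in 3 or more libraries were tested with limma-trend (limma 3.58.1, R 4.3.3) on log2(normalized count + 1), with a single term for genotype and Benjamini-Hochberg adjustment over all of them. On the recovered reads, edgeR 4.0.16 (quasi-likelihood, TMM) called 0 genes at FDR 0.05 and 777 at an unadjusted p under 0.05, and DESeq2 1.42.0 (Wald test) called 67. Single values were compared with exact two-sided permutation tests.

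The members and gene lists were chosen with earlier results of these data known, and lists were described by counts and medians without a test. Genes named are the 10 members, list genes with an unadjusted p under 0.05 (at most 4 per list), the leading genes of the cell marker lists, Arntl, Xist, Ddx3y and the 5 genes most like the members' mean profile. Partners and regulators beyond these (Trem2, Cst7, Syk, Card9, Bcl10, Malt1, Gas6, Mertk, Itgb2, Itgam, Gpihbp1, Cd44, Bhlhe41, Tfeb, Mitf, Tfe3, Irf8, Itga9, Igsf8, Cd163, Lyve1, F13a1 and Ly6c2) were named after their values were seen, for their role or because their list's count turns on them. Alternatives were edgeR with TMM or the size factors, DESeq2, limma-voom, pseudocounts of 0.5 and 10, 2 other filters, the microglial marker level as a covariate and each library left out in turn. Coordinates are those of the table, on GRCm38, with 1-based starts, and exon lengths were taken from GENCODE M21. Python 3.11.15 was used for tables (pandas 2.3.3, numpy 2.4.6), exact tests (scipy 1.17.1) and figures (matplotlib 3.10.9).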

Additional observations from a re-analysis of the deposited data

How the results depend on the processing

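Across 15 alternatives, 0 members passed FDR 0.05, and 136 of 150 fold changes of members kept their sign. Cd68, Clec7a, Lgals3, Fabp5 and Cd9 kept theirs in all 15. Spp1 turned negative with edgeR (-0.32 with TMM, -0.30 with the size factors), with DESeq2 (-0.30) and with the marker level as covariate (-0.19), and ran from -0.79 to 0.87 with a library left out. Itgax was -0.084 with the covariate and ran from -0.22 to 0.19 with a library left out. With a library left out, Gpnmb ran from -2.72 to 0.46, Lpl from -0.89 to 0.15 and Axl from -0.12 to 0.45. The cause was not tested. The median of the members was -0.50 when control library 2 was left out and 0.30 when control library 3 was, the lowest and highest of the 6, and was -0.27 with edgeR, where the median of all tested genes was -0.03. The median relative to the microglial markers ran from -0.40 to 0.13 with a library left out, and the value of 0.13 was without control library 3. Members at an unadjusted p under 0.05 numbered 3 with the covariate, where 13.8% of all tested genes met that threshold. They numbered 0 to 3 with a library left out. The share over all tested genes was not taken in those fits, so these counts cannot be set against a background. DESeq2 called 67 genes where limma-trend called 0. No paired analysis was possible because the columns carry a genotype and a running number that goes against the library numbers in the labels. The SD of control was above 1 on the log2 scale for Spp1, Gpnmb, Lpl and Lgals3, and the fewest reads behind a member's value were 77, for Gpnmb in control library 2.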

Other observations

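Genes outside all lists were ranked by how closely their levels followed the mean log2 profile of the 10 members over the 6 libraries. Among 15449 tested genes with a mean of at least 100 normalized counts, the most alike were Akirin1-ps (Pearson r = 0.991), Zic4 (0.988), Clec5a (0.986), Gm16286 (0.979) and Zgrf1 (0.978). The profile itself was 0.66, -1.09 and 0.60 in control libraries 1 to 3 and 0.27, -0.04 and -0.42 in Bmal1;CKO libraries 4 to 6, as the log2 difference from each gene's own mean. With 6 libraries and this many candidates, high coefficients are a description only. The genes share the libraries and their depth. Clec5a encodes a myeloid C-type lectin that signals through DAP12, the product of Tyrobp.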
